A study of Mus musculus with 8 samples.

Results

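The comparison set cells that carried extra NFIA early against cells without it that had been passaged: PN_NFIA, the NFIA-overexpressing cells of primary neurospheres, against SN_control, the control cells of secondary neurospheres. Its members were the samples titled for these 2 groups, 4 of the 8 samples of the series, with 2 arrays in each group. The question was how far NFIA in primary neurospheres brings cells to the state that control cells reach with passage, and in which genes it does not. All cells were neural stem and progenitor cells (NSPCs) grown as floating neurospheres from mouse embryonic stem cells. NFIA-overexpressing (OE) and control cells shared mixed spheres and were separated by fluorescence-activated sorting before RNA was taken. PN_NFIA cells were at passage 0, on day 6 of culture after the embryoid body stage. SN_control cells were at passage 1, on day 12. PN_control, the control cells of the primary spheres (passage 0, day 6), supplied the starting state. SN_NFIA (passage 1, day 12) entered the estimate of spread and the choice of genes and probes, and its levels are given for a few genes. The promoter that drives NFIA and the marker used for sorting are not given in the sources used here.

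Several limits come with these groups. Titles and source names disagree: the source names of PN_NFIA 1 and SN_NFIA 2 read WT, and those of all 4 control samples, PN_control included, name the NFIA OE line. Groups here follow the titles. The source names speak of WT cells and an NFIA OE line, so the effect of NFIA cannot be told apart from a difference between lines. The labels do not say that arrays of a group came from separate cultures, so p-values measure the spread between these arrays, which may be technical. Each deposited scanner file was assigned to the sample whose column of the authors' value table it matched, because 7 of the 8 files were attached to another sample. Under that assignment, passage coincided with slide row and NFIA with slide columns, so position on the slide cannot be told apart from either.

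NFIA is a transcription factor of the nuclear factor I (NFI) family that binds the palindrome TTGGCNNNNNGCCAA and its single arms. In the developing central nervous system it appears in progenitors as they pass from making neurons to making glia, acts with SOX9 on early glial genes, and takes part in astrocyte maturation. NSPCs derived from embryonic stem cells follow a similar order in culture: early neurospheres mostly yield neurons, and later passages gain the ability to form astrocytes and oligodendrocytes.

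A level below is the log2 processed signal of a gene's probe minus the 75th percentile of its array, and a difference is the mean level of PN_NFIA minus that of SN_control, so a difference of 1 means that PN_NFIA was 2-fold higher. Differences carry the standard error of limma's moderated fit (± SE, 2 arrays a group). Levels are not compared between genes. In these bulk samples, fewer cells of a type and less RNA per cell cannot be told apart. The arrays held 59305 spots besides controls, none saturated, and 45.4% to 56.4% of spots were well above background. SN_control 1 had the lowest share and its lowest level counted as well above background was -3.27, against -4.86 to -3.86 on the other 7 arrays. Levels over genes correlated at 0.982 between the 2 PN_NFIA arrays and at 0.944 between the 2 SN_control arrays, and PN_NFIA 2 and SN_control 1, of different groups, correlated at 0.964; genes are not independent replicates. The median absolute difference between replicates was 0.245 in PN_NFIA and 0.466 in SN_control. Sox2, a core neural stem cell factor, was well above background on all 8 arrays, at levels from 2.46 to 3.26. Sox2 is also among the pluripotency genes read below, and Pou5f1 of that list was likewise well above background on all 8 arrays. Sox2 alone thus does not tell NSPCs from pluripotent cells.

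Among 13790 genes, limma called 1 gene higher and 4 lower in PN_NFIA at an adjusted p under 0.05, which is 0.00725% and 0.029% of the genes tested. At an unadjusted p under 0.05, 917 genes (6.65%) were higher and 425 (3.08%) lower. The median difference over all genes was 0.05, with 7681 positive and 6109 negative, and the median standard error was 0.33. By comparison, limma called 100 genes higher (0.725%) and 19 lower (0.138%) in SN_control than in PN_control, and 43 higher and 0 lower in PN_NFIA than in PN_control, the latter with 1320 genes at an unadjusted p under 0.05. Those 2 comparisons share the PN_control arrays with each other and the remaining arrays with the comparison reported here. All these counts are over the same 13790 genes, from a fit without the replicate number. Deviations of same-numbered arrays correlated at 0.45 between PN_control and PN_NFIA, a pairing that this fit leaves out.

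Nfia itself, the overexpressed gene, did not stand higher in PN_NFIA. Its level was -0.24 and 0.93 in PN_NFIA and 1.00 and 0.61 in SN_control, and the groups overlapped. In PN_control it was -1.30 and -0.30, so that PN_NFIA stood 1.15 ± 0.48 above PN_control (adjusted p = 0.513, limma) and SN_control 1.61 ± 0.48 above it (adjusted p = 0.221, limma). The difference between PN_NFIA and SN_control was -0.46 ± 0.48 (95% interval -1.59 to 0.66, adjusted p = 0.836, limma), and 0.12 without PN_NFIA 1. A dimmer probe for Nfia gave -1.88 and -0.88 in PN_NFIA against -1.68 and -3.19 in SN_control, a difference of 1.05, so the 2 probes disagreed in sign. Whether the transgene holds the target of either probe is not given in the sources used here.

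The promoters of 2 of the genes called lower are shown with those of 2 Notch targets described further on, because the first pair carry called differences and the second pair are described by value below. Each is the 250 bases before the gene's start from RefSeq (GRCm38.p6), 5′ to 3′ in the direction of the gene. In the first pair, Mrgprb1 (chr7:48456343-48456592, minus strand) and Olfr487 (chr7:108212528-108212777, minus strand), capitals mark the NFI arm TTGGCA on either strand; in the second pair, Hes5 (chr4:154960673-154960922, plus strand) and Nrarp (chr2:25180508-25180757, plus strand), they mark TGGGAA on either strand, the core bound by RBPJ, the DNA-binding partner of Notch.
Mrgprb1: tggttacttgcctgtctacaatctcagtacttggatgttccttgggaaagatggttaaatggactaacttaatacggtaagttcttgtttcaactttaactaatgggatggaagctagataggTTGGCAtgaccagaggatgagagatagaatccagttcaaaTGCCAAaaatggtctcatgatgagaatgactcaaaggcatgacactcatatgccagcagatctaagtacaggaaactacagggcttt
Olfr487: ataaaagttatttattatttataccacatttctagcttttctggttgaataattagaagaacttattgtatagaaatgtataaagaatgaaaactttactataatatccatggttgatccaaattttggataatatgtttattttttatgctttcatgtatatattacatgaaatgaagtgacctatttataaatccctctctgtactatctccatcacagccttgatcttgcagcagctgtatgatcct
Hes5: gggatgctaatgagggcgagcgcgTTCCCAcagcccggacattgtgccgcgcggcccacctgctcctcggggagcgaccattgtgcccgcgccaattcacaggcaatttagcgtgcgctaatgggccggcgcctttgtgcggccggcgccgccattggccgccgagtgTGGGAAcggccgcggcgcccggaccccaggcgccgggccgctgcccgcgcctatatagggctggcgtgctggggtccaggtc
Nrarp: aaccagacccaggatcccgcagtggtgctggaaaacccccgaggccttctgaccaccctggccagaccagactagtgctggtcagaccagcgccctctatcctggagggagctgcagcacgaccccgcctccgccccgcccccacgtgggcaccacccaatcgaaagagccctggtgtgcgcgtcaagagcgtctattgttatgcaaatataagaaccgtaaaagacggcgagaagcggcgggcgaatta
Mrgprb1 held TTGGCA 127 and 87 bases before the start and Olfr487 held none. Hes5 held TGGGAA 226 and 82 bases before the start and Nrarp held none in this window. A promoter was matched for 10958 of the tested genes: 10.2% of them held TTGGCA, 20.4% held TGGGAA, and 4 (0.0365%) held the palindrome, which holds TTGGCA where its spacer begins with A or ends with T. Among the 89 genes named here with a promoter in the table, 9 (10.1%) held TTGGCA, 24 (27%) held TGGGAA and 0 held the palindrome. A match describes the letters of the window only.

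Ccdc68, which encodes a centriolar coiled-coil protein, was the gene called higher. Its level was -2.34 and -1.99 in PN_NFIA and -5.33 and -5.30 in SN_control, where neither array was well above background. It stood at -4.93 and -4.56 in PN_control and at -3.73 and -3.59 in SN_NFIA, so only the arrays of NFIA cells were well above background. Ccdc68 passed the filter on dim probes through those arrays alone. The difference was 3.15 ± 0.26 (adjusted p = 0.0202, limma), and PN_NFIA was at least 3.13-fold higher. Such a bound sets the brighter group's mean against, for each dim array, its lowest signal well above background or the probe's own signal, whichever is higher.

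The 4 genes called lower were well above background only in SN_control. They passed the filter on dim probes, which asked for both arrays of any group, through SN_control alone. On the arrays of the other groups their signal was background. The pooled spread is thus partly that of background, and the p-values of these genes, here and against PN_control, may be too small. Dcstamp, which encodes a membrane protein needed for the fusion of osteoclast precursors, was at -2.13 and -1.77 in SN_control and at -6.36 and -6.61 in PN_NFIA. Its difference was -4.54 ± 0.26 (adjusted p = 0.00348, limma; at least 5.78-fold lower). Mrgprb1, a Mas-related G protein-coupled receptor gene, was at -2.63 and -2.73 in SN_control and at -6.78 and -6.62 in PN_NFIA, a difference of -4.02 ± 0.23 (adjusted p = 0.00348, limma; at least 3.47-fold lower). Both SN_control arrays were thus far from both PN_NFIA arrays.

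Olfr1254 and Olfr487, 2 olfactory receptor genes, were the other calls. Olfr1254 was at -2.59 and -1.27 in SN_control and at -6.79 and -6.62 in PN_NFIA (difference -4.78 ± 0.42, adjusted p = 0.0251, limma; at least 5.86-fold lower). Olfr487 was at -2.62 and -1.46 in SN_control and again at -6.79 and -6.62 in PN_NFIA (difference -4.66 ± 0.39, adjusted p = 0.0202, limma; at least 5.42-fold lower). In PN_control both were at -6.72 and -6.56, and neither PN_control nor PN_NFIA was well above background, so those groups cannot be ordered. All 4 genes passed the test in SN_control over PN_control as well (adjusted p from 0.00194 to 0.00913, limma). That test used the same SN_control arrays, through which the genes passed the filter, against another group at background. It is therefore no separate evidence.

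These calls depended on single arrays and on the estimate of spread; where an array of either group was left out, the array that remained was assumed to vary like the other groups. Leaving out PN_NFIA 1 left 0 genes called (limma; the 5 were not called), leaving out PN_NFIA 2 left only Gkn2, leaving out PN_control 1 or PN_control 2 left Dcstamp and Mrgprb1, leaving out SN_NFIA 1 or SN_NFIA 2 gave 2 higher and 3 lower with Dcstamp and Mrgprb1 among them, leaving out SN_control 1 gave 7 higher and 32 lower with all 5 among them, and leaving out SN_control 2 gave 4 higher and 6 lower without Ccdc68. With only the 4 arrays of both groups in the fit, limma called 0 genes (825 higher and 322 lower at an unadjusted p under 0.05), and it also called 0 with normexp background correction (637 and 410), with a stricter filter on dim probes (582 and 441) and with the scanner files as attached to samples (98 and 236), where 47 of the genes named here turned sign.

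**Figure D1:**
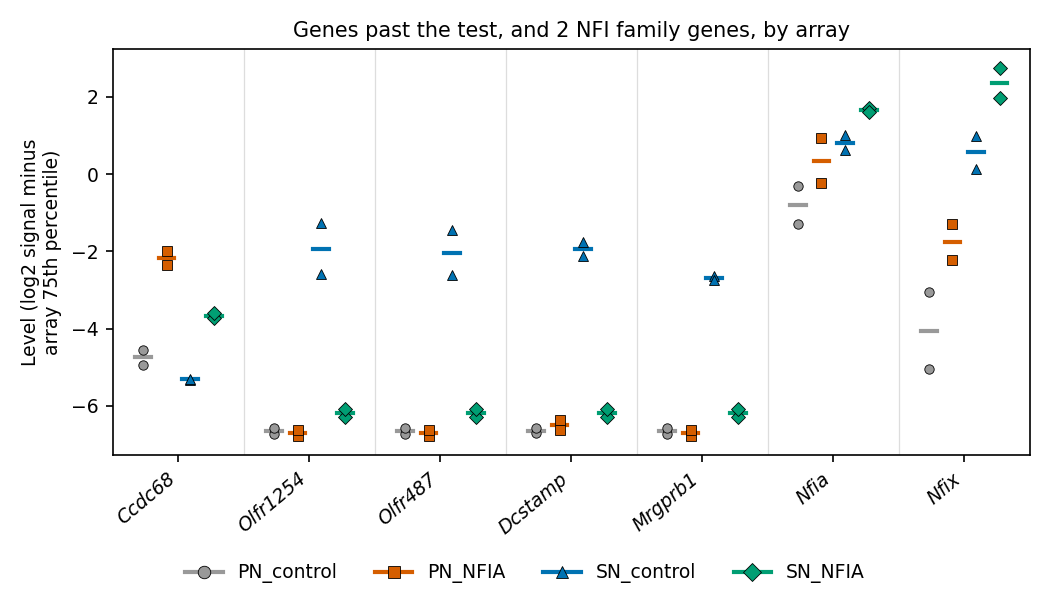
Level (log2 signal minus the array's 75th percentile, vertical axis) of the 5 genes past the test and of Nfia and Nfix, for every array; markers are arrays, short bars are group means of 2 arrays, and colours are the 4 groups. Ccdc68 lies highest in the PN_NFIA arrays (-2.34 and -1.99), and the other 4 called genes lie above -3 only in the 2 SN_control arrays.

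The 7 genes below, which rose with passage in control cells, stood in primary NFIA cells between both control levels or overlapped the secondary range. They do not stand for all 100 genes called higher in SN_control than in PN_control. Dcstamp, Mrgprb1, Olfr1254 and Olfr487, given above, also rose with passage but were well above background on no PN_NFIA array. Among genes that passed the adjusted test of SN_control over PN_control with arrays that did not overlap, 7 of the 8 with the largest rise are described here. Both the PN_control and the SN_control values chose them, so low PN_control values are part of the choice and their levels are given as a description, without a test. In all 7, both PN_NFIA arrays lay above both PN_control arrays, and the share of all genes that did so was not counted. Tnc, the matrix glycoprotein tenascin C of astrocyte precursors, was at -6.19 and -4.45 in PN_control, -0.36 and 0.47 in PN_NFIA and -0.59 and 0.28 in SN_control, so PN_NFIA and SN_control overlapped. Its difference between the groups was 0.21 ± 0.61, of either sign when single arrays of the pair were left out (-0.22 to 0.64).

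Cyp1b1, a cytochrome P450, was at -4.20 and -4.40 in PN_control, 1.11 and 0.81 in PN_NFIA and 1.03 and 1.99 in SN_control. Lrrc17, a secreted leucine-rich repeat protein, was at -3.22 and -3.29, then 0.94 and 0.79, then 1.16 and 2.46 in the same order of groups. Bcan, brevican of the perineuronal and glial matrix, was at -1.98 and -0.74, then 2.76 and 4.73, then 4.40 and 7.05. For Cyp1b1 and Bcan the PN_NFIA and SN_control ranges overlapped, and for Lrrc17 both PN_NFIA arrays lay below both SN_control arrays.

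The other 3 of these genes stood between both control states. Ccn4, a matricellular WNT target, was at -6.22 and -6.50 in PN_control, -2.37 and -1.97 in PN_NFIA and -0.93 and 0.57 in SN_control. S100a4, a calcium-binding protein, was at -2.72 and -3.40, then -0.74 and 0.05, then 1.44 and 3.97. Col1a1, the main chain of type I collagen, was at -2.49 and -2.44, then -0.34 and 0.68, then 2.31 and 3.67. Neither PN_control array was well above background for Ccn4, Cyp1b1 or Tnc.

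The genes that fell were chosen in the same way, as the 8 with the largest fall among those that passed the adjusted test without overlap, again with both control groups' values. For all 8, both PN_NFIA arrays lay above both SN_control arrays, as they did for 3192 of all 13790 genes tested. Low SN_control values are part of the choice. Tbr1, a T-box factor of early glutamatergic cortical neurons, was at 3.51 and 2.47 in PN_control, 2.91 and 1.81 in PN_NFIA and -1.37 and -2.54 in SN_control. PN_NFIA thus overlapped PN_control for Tbr1 and stood 4.31 ± 0.60 above SN_control, the largest positive difference of all genes tested. Irx6, an Iroquois homeobox gene, overlapped PN_control too: -0.58 and -2.15 in PN_control, -1.60 and -2.10 in PN_NFIA, -4.82 and -4.79 in SN_control.

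Pax6, which maintains dorsal neural progenitors, was at 0.48 and 0.38 in PN_control, -0.47 and -0.77 in PN_NFIA and -1.89 and -2.73 in SN_control. Slc17a6, the vesicular glutamate transporter VGLUT2, was at 0.60 and -0.16, then -0.51 and -1.37, then -2.63 and -3.37. Dmrta2, a doublesex-related factor of cortical progenitors, was at 0.84 and 0.79, then 0.03 and -0.22, then -2.83 and -1.91. These 3 lay below both PN_control arrays in PN_NFIA but above both SN_control arrays.

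Nrn1, the neurite-promoting protein neuritin, was at 0.81 and 0.88 in PN_control, -0.18 and 0.10 in PN_NFIA and -1.26 and -1.98 in SN_control. Rspo2, a secreted enhancer of WNT signalling, was at 0.13 and -0.47, then -0.75 and -1.42, then -3.21 and -4.76, and Iapp, the amylin precursor, at -2.42 and -2.27, then -3.78 and -3.26, then -5.27 and -5.87. Rspo2, Irx6 and Iapp were well above background on neither SN_control array, so PN_NFIA was at least 6.48-fold, 3.89-fold and 1.22-fold higher, respectively. Set against PN_control, Slc17a6 differed by -1.15 ± 0.48 in PN_NFIA and by -3.21 ± 0.48 in SN_control, and Tbr1 by -0.63 ± 0.60 and -4.95 ± 0.60.

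**Figure D2:**
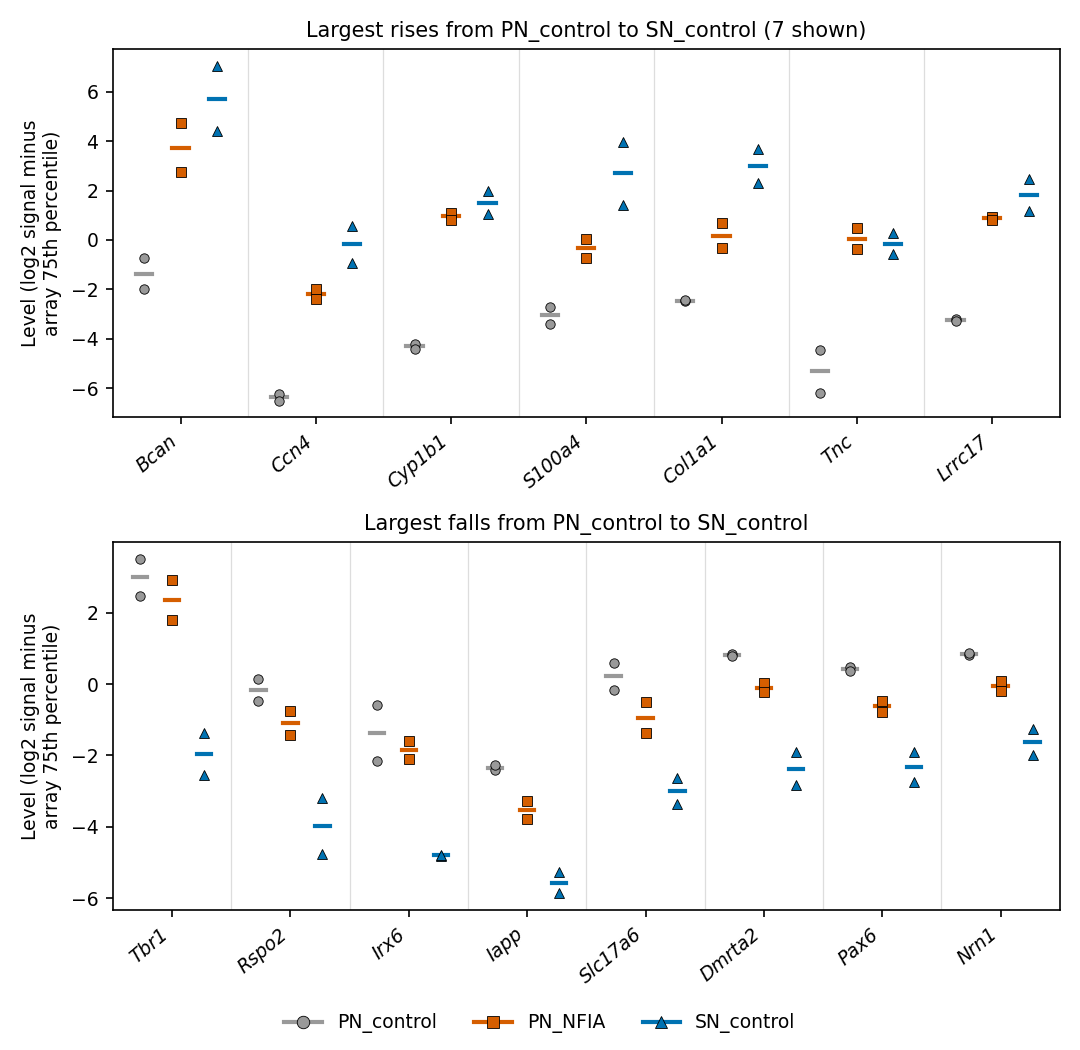
Level (log2 signal minus the array's 75th percentile, vertical axis) of 7 of the 8 genes with the largest rise (upper panel) and the 8 with the largest fall (lower panel) from PN_control to SN_control among genes past the adjusted test of that change; markers are arrays and short bars are means of 2 arrays. In the upper panel PN_NFIA lies above PN_control for every gene, with Tnc at the SN_control level, and in the lower panel PN_NFIA lies above SN_control for every gene, with Tbr1 at the PN_control level.

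Gene lists were then read for what was shared and what was lacking. In the main fit, no member of the 30 lists passed limma's test at an adjusted p under 0.05. With the replicate number fitted within each passage, Gpr17, Sox10 and Pdgfra were among the genes that did. The lists are described by their medians, beside 0.05 over all genes. They are also described by members at an unadjusted p under 0.05, beside 6.65% higher and 3.08% lower over all genes. The named members are the 3 with the smallest p in each list unless stated. Smad9, Rsad2, Ifi44, Sox7, Emcn, Hba-a1 and Prlr were well above background only on arrays of NFIA cells. They passed the filter on dim probes through those arrays alone. Their positive differences are thus in part set by the filter, and they remain in the counts of their lists. All measured NFI family genes, 4 of 4, stood lower in PN_NFIA, with a median of -0.60 (-0.14 without PN_NFIA 1 and -1.12 without PN_NFIA 2) and 1 of them at an unadjusted p under 0.05. Nfix was at -2.21 and -1.30 in PN_NFIA and at 0.13 and 0.99 in SN_control, a difference of -2.32 ± 0.70 (adjusted p = 0.376, limma). PN_control held Nfix at -5.04 and -3.05, so PN_NFIA stood between both control states. Nfib was at 2.96 and 3.88 in PN_NFIA and 4.74 and 3.58 in SN_control, where the groups overlapped.

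Of 6 early glial genes that SOX9 and NFIA act on, 4 stood lower, with a median of -0.48 (-0.17 to -0.95 over single PN_NFIA or SN_control arrays left out) and 1 at an unadjusted p under 0.05. Zcchc24 was at 2.81 and 3.19 in PN_NFIA, 3.41 and 4.57 in SN_control and 0.72 and 0.75 in PN_control (difference -0.99 ± 0.39). Mmd2, a Golgi protein induced with gliogenesis, was at -1.04 and 0.10 in PN_NFIA and -0.36 and 1.98 in SN_control, and overlapped. Fabp7, the radial glial fatty acid-binding protein, was at 5.61 and 6.15 against 6.52 and 6.99. Sox9, the upstream glial determinant, was at 1.15 and 1.54 against 1.51 and 1.05 (difference 0.07, 95% interval -0.58 to 0.72), and its sign turned with single arrays left out (-0.17 to 0.30).

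Astrocyte genes had no common direction against SN_control. Of 37 measured genes, 15 were positive and 22 negative. At an unadjusted p under 0.05, 0 were higher and 1 lower, Dio2, which was well above background on no array of either group. The median difference of the list was -0.20, from -0.68 without SN_control 1 to 0.29 without SN_control 2. Its sign thus depended on which SN_control array was used. Aldoc, the brain aldolase, was at 4.84 and 6.10 in PN_NFIA, 3.53 and 6.02 in SN_control and 2.58 and 2.99 in PN_control. Slc1a3, the glutamate transporter GLAST, was at 1.72 and 3.06 in PN_NFIA and 2.09 and 2.86 in SN_control (difference -0.08, 95% interval -1.22 to 1.05; -0.75 to 0.59 with single arrays left out). Both genes overlapped between the groups.

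Mlc1, an astrocyte membrane protein, was at 1.80 and 3.61 in PN_NFIA and 3.59 and 4.80 in SN_control, and Acsbg1, an acyl-CoA synthetase, at -0.22 and 0.12 against 0.46 and 0.59. Dio2, the thyroid hormone activating deiodinase, was well above background on no array of either group and has no fold here. Gfap, the intermediate filament of mature astrocytes, was likewise well above background on no array of PN_NFIA, SN_control or PN_control, and on both of SN_NFIA. The summed signal of the list, as log2, was 8.67 and 9.20 in PN_NFIA, 8.58 and 9.80 in SN_control and 8.20 and 8.12 in PN_control.

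Of 15 measured oligodendrocyte lineage genes, 14 stood lower in PN_NFIA, with a median of -2.15, the lowest of the 30 lists. The 5 lower at an unadjusted p under 0.05, the last 2 of which are named after their values were seen, were Olig1, Pdgfra, Gpr17, Sox10 (-4.36 ± 1.54) and Nkx2-2 (-1.54 ± 0.60). Olig1, a helix-loop-helix factor of the lineage, was at -1.80 and 0.94 in PN_NFIA, 2.15 and 4.08 in SN_control and -0.92 and -0.19 in PN_control (difference -3.55 ± 1.01, adjusted p = 0.335, limma). PN_NFIA thus bracketed the primary control level. Olig2, its partner, was at -1.59 and 0.33 in PN_NFIA, 0.53 and 2.46 in SN_control and -0.77 and 0.25 in PN_control.

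Pdgfra, the growth factor receptor of oligodendrocyte precursors, was at -0.57 and -1.37 in PN_NFIA, 0.66 and 2.92 in SN_control and -1.85 and -2.74 in PN_control. Gpr17, a receptor of committed precursors, was at -3.86 and -3.32 in PN_NFIA but 0.54 and 7.43 in SN_control. Its difference, -7.58 ± 2.56 (95% interval -13.63 to -1.53, adjusted p = 0.423, limma), was the lowest of all genes tested, and the SN_control arrays lay further apart from each other than SN_control 1 lay from PN_NFIA. The size of the gap rested on SN_control 2: the list's median was -0.50 without that array and -3.89 without SN_control 1. Its summed signal was 4.01 and 4.28 (log2) in PN_NFIA, 4.28 and 4.38 in PN_control, 4.77 in SN_control 1 and 9.42 in SN_control 2.

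Neurogenic and neuronal lists had medians near that of all genes, while single early neuronal genes stood higher. Of 23 proneural and neurogenic progenitor genes, 12 were positive (median 0.04; -0.61 without SN_control 2 and 0.59 without SN_control 1), with 3 higher and 1 lower at an unadjusted p under 0.05. Nhlh2, a helix-loop-helix factor of newborn neurons, was at 1.40 and 0.31 in PN_NFIA, -2.19 and -3.14 in SN_control and 1.89 and 1.08 in PN_control (difference 3.53 ± 0.85, adjusted p = 0.266, limma). Neurod1, a neuronal differentiation factor, was at -2.13 and -2.15 in PN_NFIA and at -3.65 and -5.36 in SN_control, where it was not well above background, and was at least 3.20-fold higher. St18, a zinc finger factor of neuronal precursors, went the other way: -2.81 and -2.49 in PN_NFIA, -0.62 and -1.23 in SN_control and -1.10 and -1.0 in PN_control (difference -1.73 ± 0.39).

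Of 36 neuronal genes, 20 were positive (median 0.04; -0.59 without SN_control 2 and 0.83 without SN_control 1), with 2 higher and 0 lower at an unadjusted p under 0.05. These were Slc17a6, given above, and Syt4, a synaptotagmin, at -1.50 and -2.21 in PN_NFIA against -2.50 and -3.01. Scg2, a secretogranin, was at 2.22 and 1.69 against 1.40 and 1.13. Tubb3, the neuronal tubulin, was at 5.98 and 5.69 in PN_NFIA between 6.84 and 4.79 in SN_control, and the sign of its difference turned with the SN_control array left out (-1.0 to 1.05). Dll3, a Notch ligand family gene of nascent neurons, was at 2.30 and 2.61 in PN_NFIA, 3.39 and 2.83 in SN_control and 3.19 and 3.95 in PN_control.

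**Figure D3:**
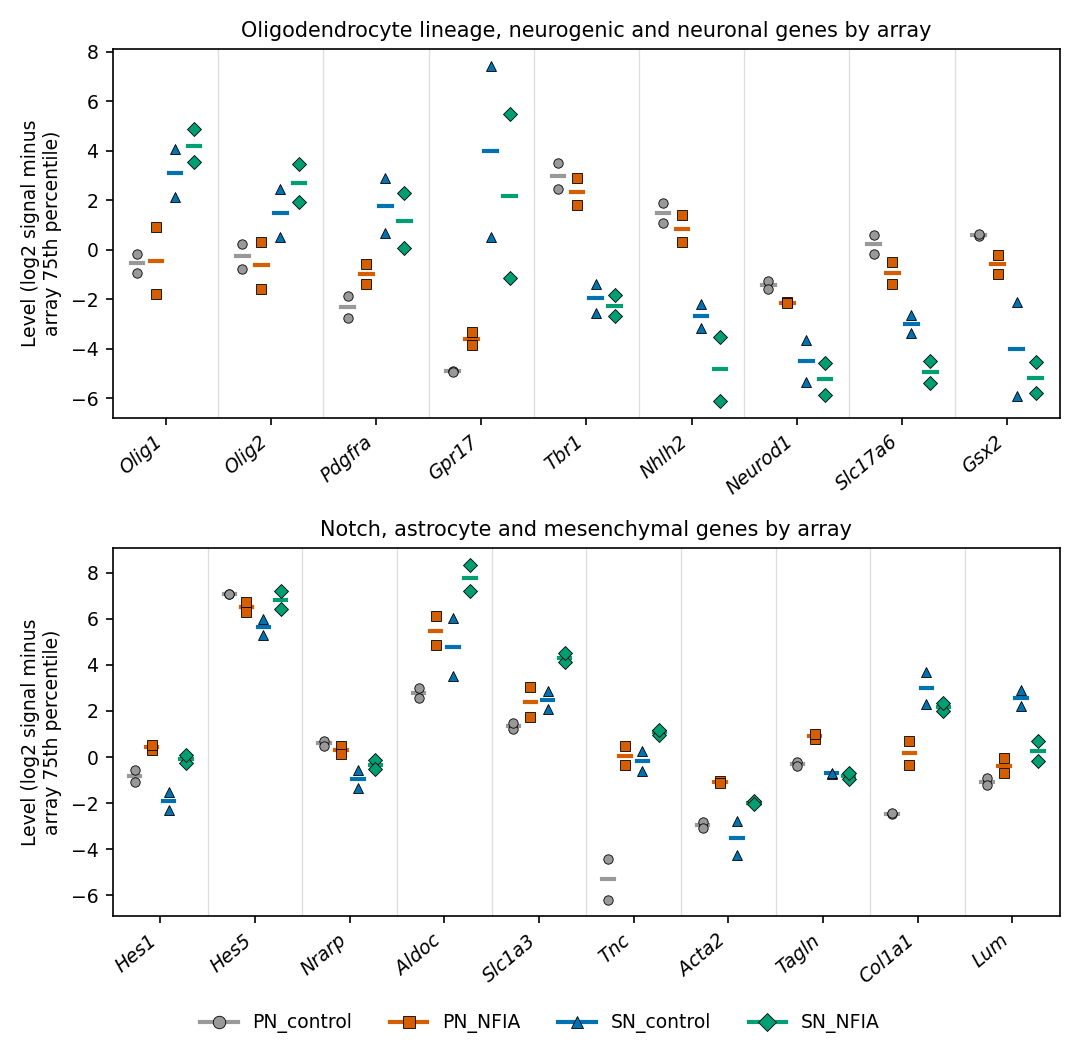
Level (log2 signal minus the array's 75th percentile, vertical axis) of lineage genes in every array; markers are arrays, short bars are means of 2 arrays, colours are the 4 groups. Gpr17 spans 0.54 to 7.43 within SN_control, Tbr1 and Nhlh2 stay near PN_control in PN_NFIA, and Aldoc and Slc1a3 overlap between PN_NFIA and SN_control.

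Genes of early progenitors and of the cell cycle stood mostly above the secondary control level in PN_NFIA. Of 14 early progenitor temporal genes, 13 stood higher (median 0.56; 0.13 without PN_NFIA 1 and 1.06 without PN_NFIA 2), 3 of them at an unadjusted p under 0.05. Igf2bp2, an RNA-binding protein of early progenitors, was at 3.16 and 3.16 in PN_NFIA, 1.96 and 2.20 in SN_control and 3.30 and 3.06 in PN_control (difference 1.08 ± 0.24, adjusted p = 0.237, limma). Hmga2, a chromatin protein that declines with progenitor age, was at 2.21 and 1.11 in PN_NFIA, -0.09 and 0.14 in SN_control and 1.97 and 1.09 in PN_control. PN_NFIA overlapped PN_control for both. Nr2f1, the nuclear receptor COUP-TFI, was at 5.31 and 5.65 against 4.60 and 4.79. Lin28b, the let-7 inhibitor, was at 3.18 and 1.96 against 1.96 and 2.08, and its difference ran from -0.05 without PN_NFIA 1 to 1.16 without PN_NFIA 2.

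Of 28 cell cycle genes, 26 stood higher, with a median of 0.41 (0.15 without PN_NFIA 1 and 0.71 without PN_NFIA 2) and 4 at an unadjusted p under 0.05. Cdk1, the mitotic kinase, was at 1.1 and 0.73 in PN_NFIA, -0.24 and 0.19 in SN_control and 1.04 and 0.96 in PN_control. Plk1, the polo-like kinase, was at 5.05 and 4.46 against 4.07 and 3.95, and Kif11, a spindle motor, at 0.39 and 0.01 against -0.56 and -0.46. Of 7 CDK inhibitors, 5 stood higher (median 0.29) with 0 at an unadjusted p under 0.05. Cdkn1a (p21) was at 2.50 and 2.26 against 1.82 and 1.65 in SN_control. Cdkn2b (p15) was at -1.54 and -2.25 in PN_NFIA, -3.36 and -2.30 in SN_control and -5.68 and -6.55 in PN_control, where it was not well above background. A dimmer probe for Cdkn2b went the other way against SN_control, by -0.89. It gave -6.36 and -5.95 in PN_NFIA, -4.97 and -5.56 in SN_control and -6.21 and -5.54 in PN_control. Cdkn2a, the Ink4a and Arf locus, was at 0.73 and 0.62 against -0.95 and 0.94, a difference that ran from -0.26 without SN_control 1 to 1.62 without SN_control 2.

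Neural stem cell and radial glia genes were spread around 0: 14 of 22 were positive (median 0.21), 3 of them higher at an unadjusted p under 0.05, namely Pax6, Hes5 and Sox21. Sox21, a SOXB2 factor, was at 2.61 and 2.37 in PN_NFIA, 1.56 and 1.25 in SN_control and 2.71 and 2.38 in PN_control. Sox2 was at 2.46 and 3.26 against 2.68 and 2.62, with a 95% interval of -0.51 to 0.94 and a sign that turned with the PN_NFIA array left out (-0.19 to 0.61).

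Of 15 Notch pathway genes, 10 were positive (median 0.33; -0.02 without SN_control 2 and 0.82 without SN_control 1), with 4 higher and 0 lower at an unadjusted p under 0.05. Hes1, a repressor that keeps progenitors undifferentiated, was at 0.31 and 0.52 in PN_NFIA, -2.31 and -1.53 in SN_control and -1.08 and -0.58 in PN_control. PN_NFIA was thus above both control states, and the difference of 2.34 ± 0.35 did not pass the adjusted test (adjusted p = 0.123, limma). Hes5, whose promoter is printed above, was at 6.31 and 6.74 in PN_NFIA, 6.00 and 5.28 in SN_control and 7.10 and 7.08 in PN_control (difference 0.89 ± 0.37). Nrarp, a feedback inhibitor of the pathway, was at 0.46 and 0.12 against -0.57 and -1.34 (difference 1.24 ± 0.33), and the ligand gene Jag2 at -1.53 and -1.63 against -2.17 and -2.40.

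The other signalling lists were mixed. Of 17 BMP and ID genes, 11 were positive (median 0.27; 0.04 without SN_control 2), with 2 higher and 2 lower at an unadjusted p under 0.05. Id1, a BMP target that inhibits helix-loop-helix factors, was at 2.64 and 3.44 in PN_NFIA against 1.77 and 2.26, and the ligand gene Bmp2 at -0.18 and -0.97 against 0.26 and 0.48. Smad9, a BMP signal transducer, was at -4.35 and -4.17 in PN_NFIA and not well above background in SN_control (-5.42 and -5.06), with no fold bound above 1. Of 15 gp130, JAK and STAT3 genes, 12 were positive (median 0.41), with 2 higher and 1 lower at an unadjusted p under 0.05: the cytokine receptor gene Il6ra (-2.01 and -1.46 against -2.96 and -2.88), the STAT3 target Bcl3 (at least 2.14-fold higher) and Il6st, which encodes gp130 (-0.29 and -0.57 against 0.10 and 0.24).

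Of 10 interferon response genes, 9 were positive (median 0.73; 0.30 without SN_control 1), 1 of them at an unadjusted p under 0.05. Rsad2, the antiviral protein viperin, was at -2.47 and -2.24 in PN_NFIA and -4.16 and -3.83 in SN_control, where it was not well above background (at least 2.29-fold higher). Ifi44 was at least 1.17-fold higher, and Usp18, which removes ISG15, was at -2.53 and -3.40 against -4.96 and -3.24, an overlap. Of 12 immediate early genes, 7 were positive, with a median of 0.48 that became -0.48 without SN_control 1 and 1.1 without SN_control 2. Jun was at 6.10 and 5.96 against 4.78 and 5.27, Dusp1, a MAP kinase phosphatase, at 2.13 and 1.57 against 1.29 and 0.54, and Atf3, a stress-induced factor, at -0.77 and -2.76 against -5.33 and -3.46. Jun was the 1 member at an unadjusted p under 0.05.

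Of 21 measured mesenchymal and mural genes, 8 stood higher and 13 lower (median -0.89; -0.53 without SN_control 2), with 6 higher and 9 lower at an unadjusted p under 0.05. The 6 higher were Acta2, Tagln, Cnn1, Myl9, Prrx1 and Snai2, of which the first 4 encode proteins of the smooth muscle contractile apparatus and the last 2 transcription factors. The 9 lower were Lum, Col1a1, Col1a2, Col3a1, Col5a1, Dcn, Pdgfra, Pdgfrb and Tbx18, which encode collagens, small proteoglycans, growth factor receptors and a transcription factor. Of both sets, only Tagln, Lum, Col1a1, Acta2 and Pdgfra were named by rule, and the others after their values were seen.

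Tagln, the actin-binding protein transgelin, was at 0.80 and 0.99 in PN_NFIA, -0.72 and -0.71 in SN_control and -0.23 and -0.39 in PN_control (difference 1.61 ± 0.24, adjusted p = 0.123, limma). Acta2, smooth muscle actin, was at -1.06 and -1.12 in PN_NFIA, -4.25 and -2.76 in SN_control and -2.83 and -3.07 in PN_control (difference 2.41 ± 0.46, adjusted p = 0.194, limma). For both genes PN_NFIA stood above both control states. Lum, the proteoglycan lumican, was at -0.69 and -0.05 in PN_NFIA, 2.20 and 2.91 in SN_control and -0.93 and -1.21 in PN_control (difference -2.92 ± 0.41, adjusted p = 0.123, limma), and Col1a1, given above, differed by -2.82 ± 0.51. The summed signal of the list was 5.25 and 5.54 (log2) in PN_NFIA, 6.40 and 7.15 in SN_control and 4.03 and 3.46 in PN_control, and the part of such cells in the matrix differences was not tested.

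Among the 19 genes of extracellular matrix and adhesion, 11 stood higher (median 0.27; -0.03 without PN_NFIA 1 and -0.02 without SN_control 2), with 2 higher and 4 lower at an unadjusted p under 0.05. The type VI collagen chains stood between both control states: Col6a2 at -2.08 and -2.17 in PN_NFIA, -0.43 and 0.00 in SN_control and -4.44 and -4.57 in PN_control, and Col6a1 at 1.23 and 0.99, 2.83 and 3.29, and -1.47 and -2.19 in the same order. Col6a2 differed by -1.91 ± 0.25 and Col6a1 by -1.96 ± 0.34. Lama5, a laminin chain of basement membranes, was at 2.78 and 3.29 in PN_NFIA, 1.41 and 1.61 in SN_control and 1.28 and 1.06 in PN_control (difference 1.53 ± 0.42).

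Of 18 caudal and dorsoventral neural tube genes, 16 were positive (median 0.62), 6 of them at an unadjusted p under 0.05 and 0 lower. Pax8, a paired box factor of the mid-hindbrain and spinal cord, was at -1.60 and -1.72 in PN_NFIA, -2.78 and -2.48 in PN_control and -5.40 and -5.94 in SN_control, where it was not well above background. It differed by 4.01 ± 0.53 (adjusted p = 0.123, limma; at least 4.45-fold higher). Dbx1, a factor of intermediate ventral interneuron progenitors, was at 3.44 and 3.28 in PN_NFIA, 1.82 and 0.55 in SN_control and 4.10 and 4.16 in PN_control, and Lmx1a, of the roof plate, at 1.19 and 1.23 against -0.72 and 0.39.

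Of 14 forebrain patterning genes, 10 were positive, with a median of 0.83 that became -0.42 without SN_control 2 and 1.72 without SN_control 1, and 2 were higher at an unadjusted p under 0.05. Gsx2, of ventral forebrain progenitors, was at -0.98 and -0.21 in PN_NFIA, -2.12 and -5.89 in SN_control and 0.55 and 0.63 in PN_control (difference 3.42 ± 1.1; 1.53 without SN_control 2 and 5.30 without SN_control 1). Sp8 was at 2.84 and 2.70 against 1.44 and 0.86, and Lhx2, a selector of cortical identity, at 3.43 and 2.37 against 2.13 and -0.06. Of 15 HOX genes, 6 were positive (median -0.44; 0.64 without PN_NFIA 2 and -1.64 without PN_NFIA 1). Hoxb2 was at -1.71 and -2.86 against -2.85 and -3.23, and Hoxa9 at -3.70 and -3.66 against -3.51 and -5.17. The HOX list differed between replicates of a group: the median deviation of the list was 0.72 in PN_NFIA 1, -1.76 in PN_NFIA 2, 0.45 in SN_control 1 and -0.67 in SN_control 2.

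Of 18 DNA methylation and Polycomb genes, 15 were positive (median 0.37), with 1 higher at an unadjusted p under 0.05. Dnmt3l, a cofactor of de novo methylation, was at -1.08 and -1.57 against -2.94 and -1.80, Suz12, a Polycomb subunit, at 1.77 and 1.77 against 1.35 and 0.66, and Ezh2, the Polycomb methyltransferase, at 3.78 and 3.46 against 3.06 and 3.06. Of 17 hypoxia and glycolysis genes, 16 were positive (median 1.05; 0.29 without SN_control 1 and 0.56 without PN_NFIA 2), with 6 higher at an unadjusted p under 0.05. Hk2, hexokinase 2, was at 0.71 and 1.57 in PN_NFIA, -0.67 and 0.10 in SN_control and 1.05 and 1.5 in PN_control, Egln3, an oxygen-sensing hydroxylase, at 0.05 and 1.65 against -1.50 and -0.47, and Vegfa at 2.18 and 3.22 against 1.29 and 1.85. Cholesterol synthesis genes stood close to the secondary level: 5 of 16 were positive, the median was -0.05 (-0.28 to 0.13 with single arrays of both groups left out), and 0 were at an unadjusted p under 0.05 by limma. Insig1, a sterol sensor partner, was at 2.76 and 2.58 against 2.25 and 2.25, and Fdft1, squalene synthase, at 1.98 and 1.46 against 1.95 and 2.20.

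**Figure D4:**
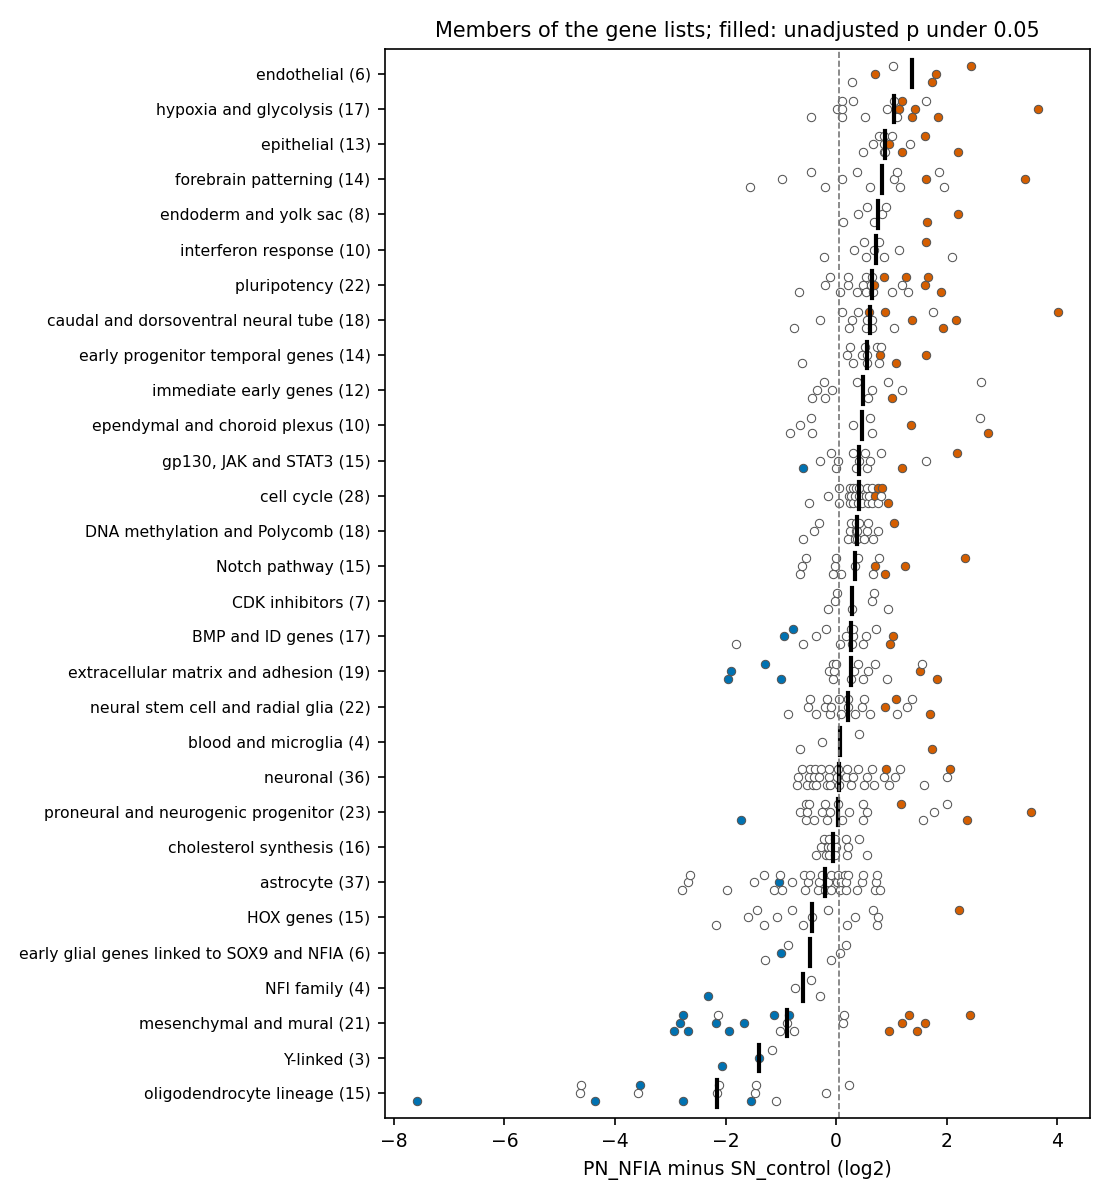
Difference PN_NFIA minus SN_control (log2, horizontal axis) of every measured member of the 30 gene lists, with the number measured in parentheses; circles are genes, filled where the unadjusted p is under 0.05, black bars are list medians and the dashed line is the median over all genes, 0.05. Lists are ordered by median, from oligodendrocyte lineage (-2.15) to endothelial (1.38), and the mesenchymal list has filled circles on both sides.

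Lists of markers of cells other than NSPCs differed in direction, with the mesenchymal list, above, mostly lower. All 13 measured epithelial genes were positive (median 0.89; 0.38 without PN_NFIA 1 and 1.74 without PN_NFIA 2), 4 of them at an unadjusted p under 0.05. Cldn3, a tight junction claudin, was at -0.57 and -1.17 in PN_NFIA against -3.0 and -1.94, Cldn7 at 1.67 and 0.57 against -0.40 and 0.27, and Cdh1, E-cadherin, at 0.78 and 0.04 against -0.72 and -0.38. Krt18, a simple epithelial keratin, was at 5.23 in PN_NFIA 1 and 2.68 in PN_NFIA 2, and at 2.23 and 3.96 in SN_control, a difference that ran from -0.42 without PN_NFIA 1 to 2.13 without PN_NFIA 2. The summed epithelial signal (log2) was 5.61 and 3.52 in PN_NFIA, 2.93 and 4.35 in SN_control and 3.60 and 3.14 in PN_control, so PN_NFIA 1 stood apart.

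Of 16 endoderm and yolk sac genes, 8 were measured and all 8 were positive (median 0.76; 0.25 without PN_NFIA 1), with Ttr, transthyretin, at -0.37 and -1.63 against -3.35 and -3.05, Cubn, cubilin, at -0.58 and -1.09 against -1.64 and -1.39, and Sox7 near background (-3.80 and -4.12) with no fold bound above 1. The 2 at an unadjusted p under 0.05 were Ttr and Sox7. Afp, the yolk sac marker alpha-fetoprotein, did not pass the filter on dim probes and was not tested. The summed endoderm signal was 5.32 and 4.93 in PN_NFIA, 4.44 and 4.74 in SN_control and 4.34 and 4.49 in PN_control.

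Of 22 pluripotency genes, 19 were positive (median 0.64), 6 of them at an unadjusted p under 0.05. Nr5a2 was at 0.59 and -0.12 in PN_NFIA against -1.18 and -1.55, Tfcp2l1 at -0.80 and -1.39 against -3.31 and -2.66, and Klf2 at 1.72 and 1.68 against -0.40 and 0.46. Pou5f1, OCT4 itself, overlapped: -0.23 and -1.15 against -1.28 and -0.24, with a difference of 0.07 that ran from -0.45 to 0.59 with single arrays left out. The summed signal was 6.62 and 6.14 in PN_NFIA, 5.19 and 5.82 in SN_control and 5.72 and 5.78 in PN_control.

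All 6 measured endothelial genes of 10 were positive (median 1.38, and 0.66 without PN_NFIA 1), 4 of them at an unadjusted p under 0.05. These 4 were well above background on neither SN_control array, and the other measured members were on both. Esam was at least 3.07-fold, Emcn at least 1.15-fold and Pecam1 at least 1.14-fold higher. Of 12 blood and microglia genes, 4 were measured, 2 were positive (median 0.08; -0.30 without SN_control 2) and Hba-a1 alone was at an unadjusted p under 0.05 (-4.16 and -3.56, not well above background in SN_control, with no fold bound above 1). Hba-a1 passed the filter on dim probes through PN_NFIA alone. Csf1r was at 0.74 and 1.03 against 0.80 and 0.15, and Itgam at 3.55 and 3.85 against 4.39 and 4.31. A dimmer probe for Itgam gave -3.43 and -3.09 against -3.27 and -3.63, a difference of 0.19 where the brighter probe gave -0.65. The summed blood and microglia signal was 4.0 and 4.32 in PN_NFIA and 4.86 and 4.52 in SN_control. Most of it came from the brighter Itgam probe, and Ptprc, Aif1, Cx3cr1, Tyrobp and Spi1 were not measured. Of 10 ependymal and choroid plexus genes, 6 were positive (median 0.46; 0.15 without SN_control 1), 2 at an unadjusted p under 0.05: Clic6, a chloride channel protein, at 0.53 and 0.58 against -3.11 and -1.25, and Prlr, well above background on 1 PN_NFIA array only and with no fold bound above 1. Ecrg4 was at 1.13 and 2.57 in PN_NFIA, -2.42 and 0.91 in SN_control and -4.18 and -6.25 in PN_control. The part of other cell types in these differences was not tested.

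Y-linked genes separated the arrays too. All 3 measured genes stood lower in PN_NFIA (median -1.40; -2.26 without PN_NFIA 1 and -0.54 without PN_NFIA 2), 2 of them at an unadjusted p under 0.05. Ddx3y was at -1.03 and -2.89 in PN_NFIA, 0.03 and 0.16 in SN_control, 0.01 and 0.22 in PN_control and -4.53 and -4.51 in SN_NFIA. Eif2s3y was at 1.46 and -0.26 in PN_NFIA against 2.10 and 1.90, and Uty at -2.40 and -4.07 against -1.88 and -2.27. For Eif2s3y (2.83 and 3.02) and Uty (-1.72 and -1.14) PN_control lay above SN_control, and for all 3 genes PN_NFIA 2 lay below PN_NFIA 1; the part of this in the other results was not tested.

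**Figure D5:**
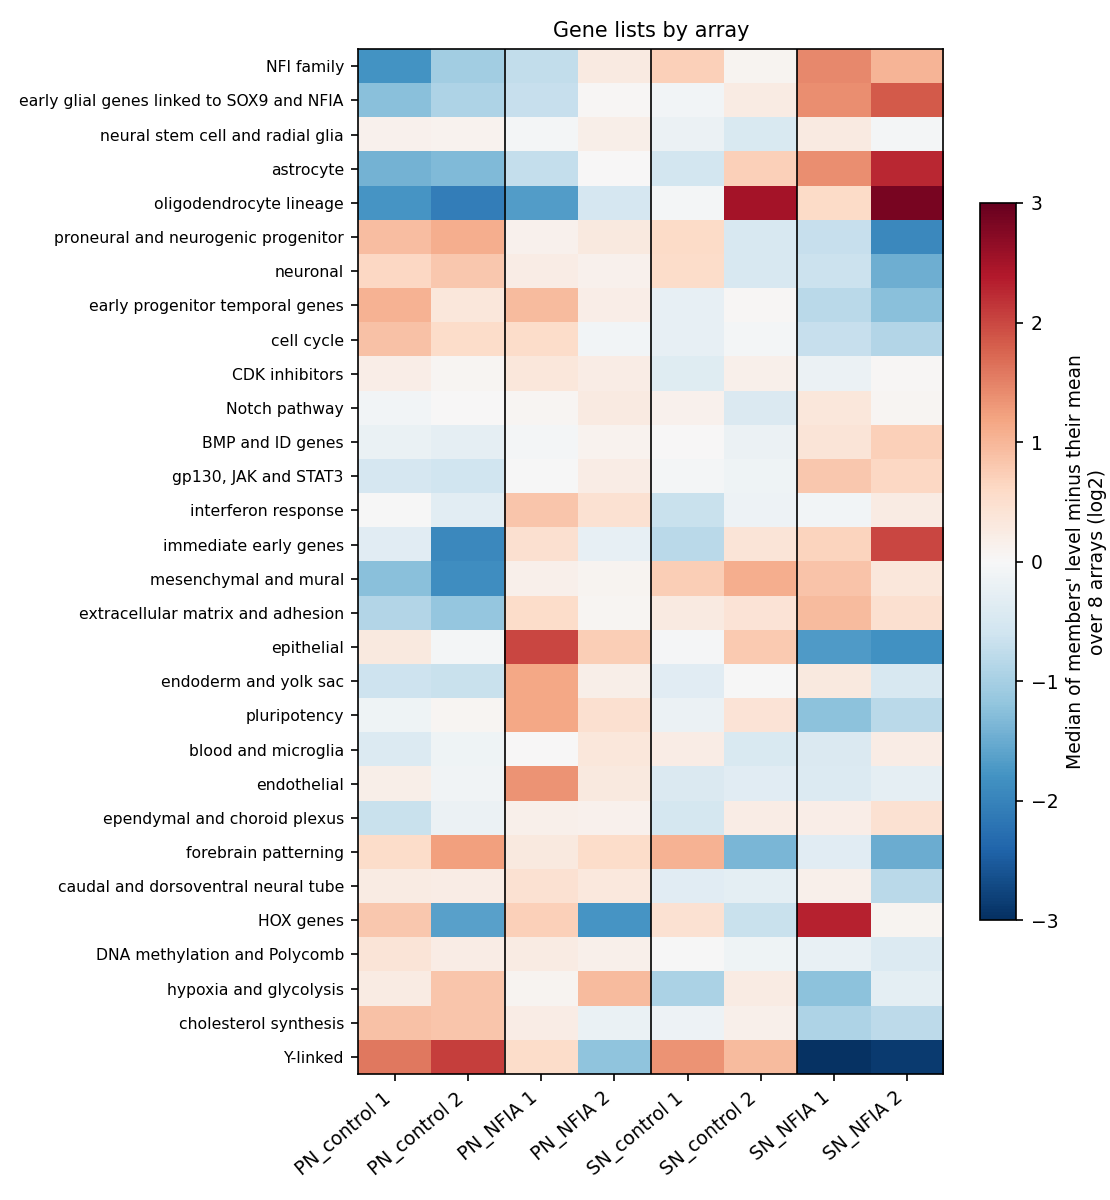
Median, over the measured members of each list (rows), of a member's level minus its mean over the 8 arrays (log2, colour from -3 to 3), for each array (columns; vertical lines part the 4 groups). The oligodendrocyte row is at 2.50 in SN_control 2 and -0.05 in SN_control 1, and the epithelial row is at 2.01 in PN_NFIA 1 and 0.73 in PN_NFIA 2.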

How the data were processed

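RNA of the sorted neurosphere cells was hybridised to Agilent arrays in 1 colour (Cy3), with 2 arrays for each of 4 groups, all on 1 slide. The deposited scanner files hold, per the file headers, spot intensity after background subtraction by Feature Extraction 10.5.1.1, with flags of other kinds (well above background, saturated, outlier); the submitters' processing notes name version 10.7.3.1. The authors' value table holds log2 values, which its values show to be the same signals after scaling to each array's 75th percentile and centring of every probe to a median near 0 (largest absolute probe median 0.000245); scale and direction were found from differences between arrays, which matched within 0.00438. Each scanner file was given to the sample whose table column it matched best (correlation at least 0.9999; next best at most 0.339).

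Levels are log2 of processed intensity minus the array's 75th percentile. Of 55681 probes, 26056 had a symbol, found by matching the probe's transcript accession to RefSeq genes, and 18163 of these were kept. Kept were those above background by the flag on both arrays of any group, without outlier flags on every spot of an array (126 left out). The brightest kept probe stood for a gene (3644 genes had several). With limma 3.58.1 in R 4.3.3, group means of all 8 arrays were fitted (4 residual and 3.03 prior degrees of freedom) and p-values adjusted by Benjamini-Hochberg over 13790 genes; the script was tested on simulated data. Arrays were grouped by titles. Members and lists were chosen with earlier results of these data known. Named were Nfia, up to 12 called genes each way without overlap, the 8 largest passage rises and falls among genes past that adjusted test without overlap, 3 members of smallest p in each of 30 lists, and fixed markers; some genes that this rule names are not reported here. Alternatives covered background correction, normalization, filters, probe choice, the value table, file assignment, the replicate block and leaving out each array; normexp used median spot signals. Precision is limited by 2 arrays a group.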

Additional observations from a re-analysis of the deposited data

How the results depend on the processing

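The count of 1 gene higher and 4 lower held, for the same 5 genes, with the mean of all kept probes and with the authors' value table. It moved to 5 higher and 5 lower with quantile normalization and to 1 and 6 with scaling to the median, each including the 5, and to 1 and 3 without a filter on dim probes (4 of the 5). It fell to 0 higher and 0 lower with normexp background correction, on median spot signals (637 and 410 at an unadjusted p under 0.05, limma), with only the arrays of both groups in the fit (825 and 322), with the stricter filter on dim probes, which by its construction drops genes dim in 1 group (582 and 441), and with the scanner files as attached to samples (98 and 236). Leaving out single arrays gave 0 to 7 higher and 0 to 32 lower, as named in the report. Deviations of same-numbered arrays correlated at -0.04 between PN_NFIA and SN_control, so the numbers do not pair these samples, while within each passage the correlation was 0.45 and 0.48; the replicate block gave 2 higher (with Tbr1) and 4 lower, and the replicate block within each passage gave 8 higher and 13 lower (with Gpr17, Sox10 and Pdgfra), each including the 5. The attached assignment also moved 18 of the 30 list medians by more than the spread between replicates. Of the named genes, 47 turned sign there, to these differences: Nfia 0.62, Bcan 2.87, Ccn4 2.21, Cyp1b1 2.07, S100a4 1.63, Col1a1 2.25, Lrrc17 2.09, Tbr1 -0.79, Pax6 -0.92, Nrn1 -0.22, Nfix 0.99, Nfib 0.55 and Zcchc24 1.01. Further such differences were Mmd2 0.025, Sox21 -0.45, Hes5 -1.14, Olig1 0.52, Pdgfra 0.56, Gpr17 1.75, St18 0.71, Scg2 -0.32, Hmga2 -0.092, Nr2f1 -0.0072, Cdkn1a -0.18, Hes1 -0.018 and Nrarp -0.69. Others were Bmp2 0.27, Id1 -0.65, Jun -0.23, Atf3 -1.55, Dusp1 -0.80, Lum 1.55, Col6a2 1.43, Col6a1 1.55, Gsx2 -1.05, Lhx2 -1.15, Pax8 -0.50, Hoxa9 -0.26 and Hoxb2 -0.65. The last were Ezh2 -0.049, Ddx3y 0.88, Eif2s3y 0.15, Uty 0.74, Slc1a3 0.090, Sox9 -0.46, Dll3 0.42 and Olig2 0.044. With normexp, Hoxa9 turned to -0.019 and Pou5f1 to -0.0088; with quantile normalization, Tubb3 to -0.11; with the mean of probes, Nfia to 0.29 and Tnc to -0.13. Without single arrays, the sign turned for Aldoc (-0.55 to 1.95), Cdkn2a (-0.26 to 1.62), Hoxa9 (-0.17 to 1.49), Krt18 (-0.42 to 2.13), Lin28b (-0.054 to 1.16), Nfia (-1.05 to 0.12), Pou5f1 (-0.45 to 0.59), Slc1a3 (-0.75 to 0.59), Sox2 (-0.19 to 0.61), Sox9 (-0.17 to 0.30), Tnc (-0.22 to 0.64) and Tubb3 (-1.0 to 1.05). The cause of these shifts was not tested. Signal over background limits genes dim in SN_control 1, and 2 arrays a group limit every estimate.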
